A study of Homo sapiens with 18 samples.

Results

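The loss of the erlotinib response in ER3, a resistant subline of the lung cancer line HCC827, was described from the 12 arrays of these 2 lines, out of 18 arrays in the series. HCC827 is a human non-small-cell lung adenocarcinoma line whose EGFR gene carries an activating mutation, and ER3 originated from it as an erlotinib-resistant line. The 4 groups were HCC827 with DMSO, HCC827 with erlotinib, ER3 with DMSO and ER3 with erlotinib, with 3 arrays in each. All cells were starved overnight before 12 h with 1 µM erlotinib or with DMSO, the solvent, so that the DMSO groups were starved as well. ER3 is 1 subline, and the labels do not say that the triplicates came from separate cultures, and p-values therefore measure array-to-array spread, which may be technical. Each array gave the brightness of bead-bound probes hybridised with labelled copies of total RNA, and values are normalised intensities on the log2 scale. The quantity of interest was the interaction, which is the erlotinib minus DMSO difference in ER3 minus the same difference in HCC827. It is positive for a gene that fell in HCC827 and not in ER3, and negative for a gene that rose in HCC827 and not in ER3.

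Erlotinib blocks the kinase of the epidermal growth factor receptor, EGFR. That receptor drives the RAS, RAF, MEK and ERK cascade, which switches on cyclin D1, transcription factors of the FOS, EGR and ETS families and its own inhibitors of the DUSP, Sprouty and SPRED families. It also drives PI3K and AKT, which hold FOXO transcription factors out of the nucleus and support ribosome production, nutrient uptake and sterol synthesis. Cells resistant to EGFR inhibitors are known to regain such signalling through a second EGFR mutation, MET or AXL, or to change their epithelial state.

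Of 48803 probes, 18866 were above background on at least 3 of the 12 arrays and were tested, and they cover 11447 named genes, each read here from its brightest probe. Between 15698 and 17869 probes per array were above background, and ER3 DMSO replicate 3 had the fewest. Arrays of a group correlated at 0.990 to 0.996, and the median SD of a gene within a group was 0.104 and 0.112 in HCC827 with DMSO and erlotinib against 0.139 and 0.130 in ER3. The ER3 DMSO arrays were the least alike, and replicate 2 had the lowest mean correlation with its group, at 0.991. The defining epithelial markers EPCAM, KRT8, KRT18, KRT19 and CDH1 were above background on all 12 arrays, while PTPRC, which marks leukocytes, was on 0, CD3E on 1 and CD14 on 11. Of 15 leukocyte markers on the array 7 were above background on no array and 2 on all, namely CD68 and CSF1R, and LYZ was on 10. RNA was taken from whole cultures, so fewer cells with a transcript and less of it per cell cannot be told apart.

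Erlotinib changed 4070 genes in HCC827 (35.6% of those tested), of which 2062 rose (18%) and 2008 fell (17.5%). In ER3 it changed 175 genes (1.53%), of which 91 rose (0.795%) and 84 fell (0.734%). The split by direction depended on the scaling: with arrays scaled to the median of all probes, 809 rose and 2478 fell in HCC827, and 193 rose and 8 fell in ER3. The response differed between the lines for 2127 genes (18.6%), with 1170 positive interactions (10.2%) and 957 negative ones (8.36%), and over all kept probes for 3127 (16.6%). A gene was called where limma's adjusted p was below 0.05. At an unadjusted p below 0.05, 5213 genes passed in HCC827, 2075 in ER3 and 3889 in the interaction. The median SE was 0.118 for a response in 1 line and 0.167 for the interaction, so that small differences could be missed in either. The ER3 count was the least stable: it was 305 without ER3 DMSO replicate 2, 19 without ER3 DMSO replicate 1, 23 without ER3 erlotinib replicate 1 and 39 without ER3 erlotinib replicate 3. A model of ER3 alone, with its 6 arrays, called 12. The interaction count stayed between 1495 and 2749 when any 1 of the 12 arrays was left out.

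**Figure D1:**
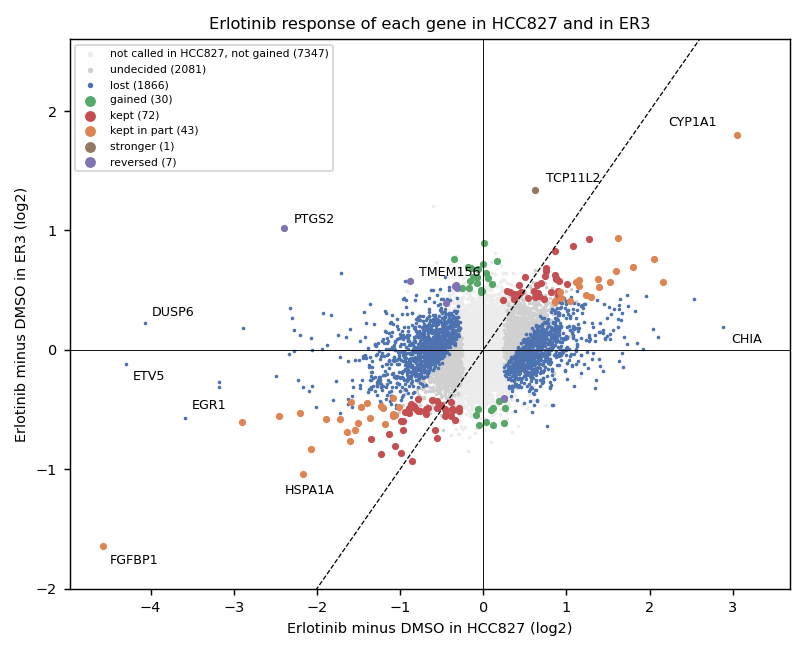
Erlotinib minus DMSO in ER3 (vertical axis, log2) against erlotinib minus DMSO in HCC827 (horizontal axis, log2) for 11447 genes, each a point coloured by class, with a dashed line where both lines change alike. Most points spread more along the horizontal than the vertical axis, and PTGS2 lies in the quadrant of genes lower in HCC827 and higher in ER3.

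Each of the 4070 parental responses was placed in a class by the calls in the 3 contrasts. A response was lost in ER3 for 1866 genes, meaning that the interaction was called against the parental direction and ER3 had no call of its own. These comprised 1013 parental falls and 853 parental rises. For 28 of the lost falls no ER3 array with DMSO was above background, so that a fall there could not be seen, and 953 were above background on all 3. The response was kept in part for 43 genes, where ER3 was called in the parental direction with a called interaction against it, and kept for 72, where ER3 was called and the interaction was not. A stronger response was called for 1 gene and a reversed one for 7. The other 2081 were undecided, with neither ER3 nor the interaction called. A further 30 genes were gained, with calls in ER3 and in the interaction and none in HCC827. A missing call does not show that ER3 did not respond, so the 95% interval of each ER3 change was also used. For 1345 of the 1866 lost genes, 728 falls and 617 rises, that interval held 0 and its limit in the parental direction was under 50% of the parental change. For 183 lost genes the ER3 interval lay wholly on the parental side of 0, and for 142 it lay on the other side. The interaction of 1153 of the 1866 was called in all 12 fits that left out 1 array.

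Among the 375 genes that changed at least 2-fold in HCC827, 323 were lost (86.1%), 39 kept in part, 7 kept, 1 reversed and 5 undecided. Of the 229 large falls 199 were lost, and of the 146 large rises 124 were lost. The median of the ER3 change was 14.6% of the parental change over the 375 genes, 13.9% for falls and 15.6% for rises. Those genes were selected by the change that is the denominator, so the percentage is a description. With 1 array left out it was between 11.5% and 15.9%, with arrays scaled to the median of all probes it was 2.19%, and the interaction of 303 of the 323 was called in every such fit. The share lost rose with the size of the parental change, from 26.3% of falls and 20.9% of rises below 0.5 on the log2 scale to 90.9% and 86.5% between 1 and 1.5, as power to call the difference also rises with size. It was 74.1% for the 27 falls above 2 and 57.1% for the 7 rises above 2, where partly kept responses made up most of the remainder.

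**Figure D2:**
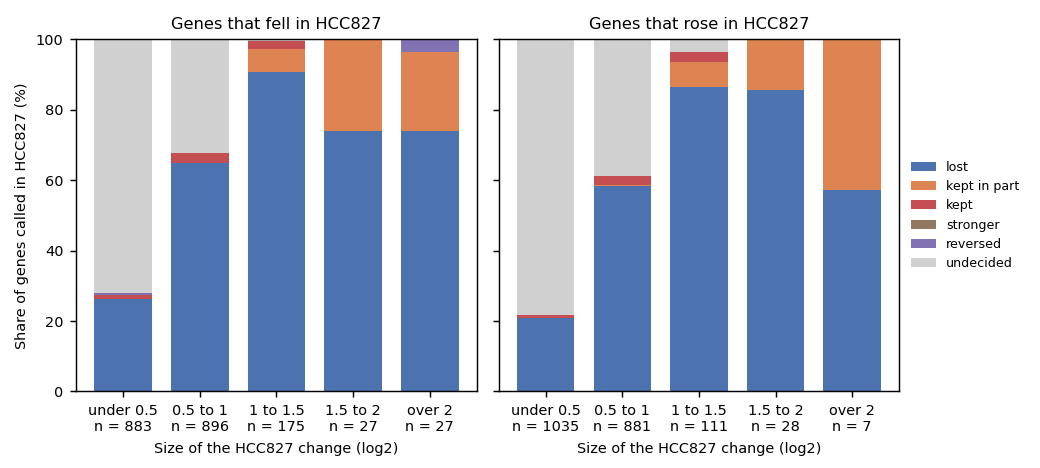
Share of genes in each class (vertical axis, percent) by the size of the HCC827 change (horizontal axis, log2), for parental falls and rises. Undecided genes fill most of the smallest bin, and lost genes are 90.9% of falls and 86.5% of rises between 1 and 1.5.

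The clearest losses were transcripts of the ERK cascade and its feedback. Of 23 measured genes of that list, 20 fell and 1 rose in HCC827, where the median change was -1.41 against 0.01 over all genes. In ER3 1 fell and 1 rose, with a median of -0.00 against 0.01 over all genes. The interaction was called for 21, 20 of them positive, and 19 of the parental responses were lost. The count of called interactions was 20 to 22 with 1 array left out. Over all genes, the reference for this and the following lists, 1866 of 4070 parental responses were lost and 1.53% of genes were called in ER3. For the 21 genes that changed in HCC827, the level in ER3 with DMSO was set on a percent scale that starts at HCC827 with DMSO and ends at HCC827 with erlotinib. The median was -30.7%, and all 21 were nearer to untreated than to treated HCC827. Over the 375 genes changed 2-fold in HCC827 the median was 12.8%, and 299 were nearer to untreated HCC827. The scale shares the HCC827 arrays with the response and is a description.

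DUSP6, a phosphatase that inactivates ERK, read 8.71, 8.37 and 8.30 in HCC827 with DMSO, 4.31, 4.38 and 4.48 with erlotinib, 7.88, 8.62 and 7.59 in ER3 with DMSO and 8.11, 8.13 and 8.53 with erlotinib. The HCC827 arrays with erlotinib were all below background and far under the other 9, while the ER3 groups overlapped. DUSP6 thus fell at least 12.3-fold in HCC827, and its ER3 change was 0.22 (95% interval -0.21 to 0.65), with an interaction of at least 3.84 (adjusted p = 2.12e-07). A second DUSP6 probe had -3.00 in HCC827 and -0.22 in ER3. ETV5, an ETS transcription factor, read 9.20, 9.26 and 9.20 in HCC827 with DMSO, 4.83, 5.11 and 4.81 with erlotinib, 9.91, 9.72 and 10.04 in ER3 with DMSO and 9.58, 10.02 and 9.71 with erlotinib. It went from high to near background in HCC827, a 19.7-fold fall, and the ER3 groups overlapped at a level above untreated HCC827. The ER3 change of ETV5 was -0.12 (-0.39 to 0.15) and the interaction 4.18 (SE 0.18, adjusted p = 2.62e-09). A dimmer ETV5 probe gave a smaller fall of -0.92 in HCC827 and 0.02 in ER3.

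The remaining feedback inhibitors had the same pattern at smaller size. DUSP5 changed by -2.07 in HCC827 and 0.10 in ER3, and DUSP4 by -1.06 and -0.00. The RAS pathway inhibitors SPRED1 and SPRED2 had -2.30 and -2.34 in HCC827, with 0.27 and -0.04 in ER3. SPRY2 had -1.41 and 0.22, SPRY4 -1.28 and -0.30 and SPRY1 -1.12 and 0.23 in HCC827 and ER3. All 7 were lost. SPRED1 read 9.89, 9.83 and 9.86 in ER3 with DMSO and 10.20, 10.14 and 10.05 with erlotinib, so that its ER3 groups did not overlap, but its adjusted p in ER3 was 0.18. The ETS factors ETV4 (-1.34 and -0.14) and ETV1 (-0.68 and 0.27) were lost too.

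EGR1, an immediate early zinc finger transcription factor, was lost by the calls but not wholly by its values. It read 8.26, 8.56 and 8.15 in HCC827 with DMSO, 4.63, 4.61 and 4.95 with erlotinib, 6.61, 6.70 and 7.08 in ER3 with DMSO and 5.99, 6.33 and 6.36 with erlotinib. Both pairs of groups were separate, and untreated ER3 lay between the HCC827 groups. The fall in HCC827 was 12.1-fold and ended close to background, so it may be understated. The ER3 change was -0.57 (-0.89 to -0.25, adjusted p = 0.0707), which is 15.9% of the measured HCC827 change and has an interval away from 0. The EGR1 promoter is shown because serum response elements, which contain CArG boxes, are the textbook route from ERK to this gene. In the 250 bases before the start of EGR1 at chr5:138465229-138465478, plus strand, GRCh38.p14 in RefSeq's promoter table, the 2 capital runs are CArG boxes, whose first bases lie at -105 and -83.
EGR1: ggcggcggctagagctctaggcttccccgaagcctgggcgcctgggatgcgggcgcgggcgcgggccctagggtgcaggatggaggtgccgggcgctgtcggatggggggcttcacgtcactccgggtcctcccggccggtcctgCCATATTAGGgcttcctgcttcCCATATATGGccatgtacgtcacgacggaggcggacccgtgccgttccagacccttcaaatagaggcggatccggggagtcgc
Among 35116 RefSeq promoters of this length, 1.16% held a CArG box on either strand, and neither box in EGR1 overlapped another motif searched, which were GAANNTTC, TGACG and CCAAT. The EGR1 promoter also held TGACG at -135 and -66. A match is a description of letters and not a site that was measured. FOSL1, an AP-1 partner of JUN, read 9.51, 9.13 and 9.53 in ER3 with DMSO and 8.63, 8.85 and 8.86 with erlotinib, with no overlap. It fell by 2.90 in HCC827 and by 0.61 in ER3 (adjusted p = 0.0436) and was kept in part, a call that held in 11 of 25 alternative analyses. Other immediate early genes moved less in HCC827: FOS was lost (-0.68 and -0.05), and JUN, JUNB and EGR3 had no call in either line.

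CCND1, which encodes the cyclin D1 that drives entry into the cell cycle, read 12.71, 12.75 and 12.87 in HCC827 with DMSO, 9.58, 9.60 and 9.61 with erlotinib, 13.01, 12.92 and 13.00 in ER3 with DMSO and 12.82, 12.64 and 12.55 with erlotinib. Erlotinib took it down 9.07-fold in HCC827, while all 6 ER3 arrays stayed within the range of bright values near untreated HCC827. The ER3 change of CCND1 was -0.31 (-0.51 to -0.11, adjusted p = 0.115), and the interaction was 2.87 (SE 0.13). MYC, a growth-promoting transcription factor, changed by -0.49 in HCC827 and 0.21 (0.00 to 0.42) in ER3 and was lost. Its second probe had -0.89 and 0.40. PLAUR, the urokinase receptor, had -1.78 and -0.26, and PHLDA1 -2.06 and -0.00 in HCC827 and ER3. Beyond this list, the largest positive interactions included UBASH3B, a tyrosine phosphatase family member (-2.89 in HCC827 and 0.18 in ER3), SGPP2, a sphingosine 1-phosphate phosphatase (-2.32 and 0.35), and ISM1, a secreted protein. ISM1 was below background in HCC827 with erlotinib, a fall of at least 4.44-fold, and had 0.16 in ER3. The probe annotated to the keratin pseudogene KRT16P2 had -3.17 and -0.27, and its signal may be shared with near-identical keratin 16 genes.

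**Figure D3:**
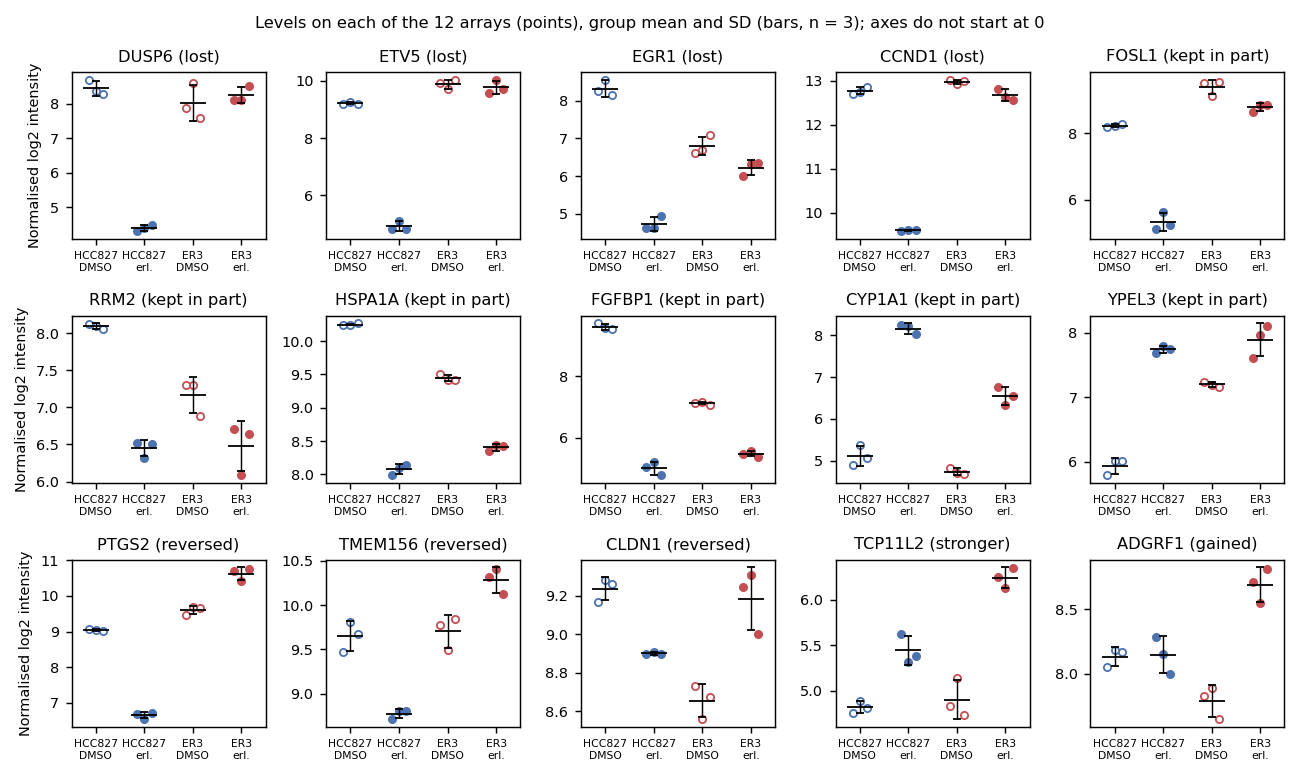
Normalised intensity (vertical axis, log2) of 15 named genes on each of the 12 arrays, 1 point per array with each group's mean and SD (n = 3) as bars, in panels by gene whose axes do not start at 0. DUSP6 and ETV5 drop in HCC827 with erlotinib and not in ER3, and CCND1 drops in HCC827 and far less in ER3. HSPA1A and FGFBP1 drop in both lines, and PTGS2 drops in HCC827 and rises in ER3.

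Receptors and ligands of the EGFR network divided by gene. EGFR itself had no call in either line, with 0.03 in HCC827 and 0.13 in ER3, and an interaction of 0.10 (-0.24 to 0.45). Its further probes differed: 1 had -0.29 in HCC827, 0.68 in ER3 and a called interaction of 0.97 (adjusted p = 0.0153), and the others had interactions of 0.43 and 0.16 that were not called. The ligands EREG (-1.17 and 0.15) and TGFA (-0.66 and -0.12) and the EGFR inhibitor ERRFI1 (-1.65 and 0.11) fell in HCC827 and were lost in ER3. LRIG1, a negative regulator of ERBB receptors, rose in HCC827 (1.06) and was lost (0.14 in ER3). MET, a receptor kinase known for its part in erlotinib resistance, read 7.87, 7.51 and 7.54 in HCC827 with DMSO, 6.23, 6.01 and 5.54 with erlotinib, 7.20, 8.22 and 7.75 in ER3 with DMSO and 8.43, 8.05 and 8.60 with erlotinib. The HCC827 groups were separate and the ER3 groups overlapped at replicate 2 of the DMSO arrays. MET fell by 1.71 in HCC827, and its ER3 value was 0.64 (0.16 to 1.12, adjusted p = 0.159). Without ER3 DMSO replicate 2 that value was 0.89 and passed, with an adjusted p of 0.041, which would place MET among the reversed genes. AXL had no call (-0.10 in HCC827 and 0.35 in ER3, interaction adjusted p = 0.18), although it read 9.98 to 10.55 in ER3 with DMSO against 7.16 to 7.39 in HCC827. ERBB3, the neuregulin receptor, rose in HCC827 (1.36) and was lost (0.42 in ER3, interval 0.12 to 0.72). On its 2 further probes neither the HCC827 change (0.28 and 0.27) nor the interaction was called. With arrays scaled to the median of all probes, the ERBB3 rise in ER3 was called (0.61, adjusted p = 0.0385) and the interaction was not (adjusted p = 0.0983). Over the 19 measured genes of this list, 5 rose and 7 fell in HCC827, 1 rose in ER3, and the interaction was positive for 7 and negative for 2.

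Ribosome production was the most uniform loss among growth genes. Of 29 measured ribosome biogenesis genes, 27 fell and 1 rose in HCC827, and none was called in ER3, against 1.53% over all genes. The parental response was lost for 25, against 1866 of 4070 over all genes, and 21 of the 25 had the bounded interval described above. The median change was -0.83 in HCC827 and -0.07 in ER3, and the ER3 median lay between -0.11 and 0.09 over the alternative analyses, turning sign only when arrays were scaled to the median of all probes. The box C/D particle proteins NOP56 (-1.30 in HCC827 and 0.04 in ER3) and NOP58 (-1.18 and 0.33), the large-subunit assembly factor PES1 (-1.30 and 0.05), the RNA helicase DDX21 (-1.17 and 0.01) and the RNA polymerase I subunit POLR1B (-0.70 and -0.03) all fell in HCC827 and were lost. The methyltransferase FBL went the other way, with 0.44 in HCC827 and -0.05 in ER3. ER3 with DMSO lay at a median of 9.3% on the scale from untreated to treated HCC827, with 27 of 28 responding genes nearer to untreated cells. For the genes changed 2-fold in HCC827 these values were 12.8% and 299 of 375.

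Genes of nutrient uptake, polyamines and nucleotides followed. Of 21 in that list, 17 fell in HCC827, none was called in ER3, and 11 were lost. Among them were ODC1, the first enzyme of polyamine synthesis (-1.26 in HCC827 and -0.23 in ER3), AMD1 of the same pathway (-1.03 and -0.07), the pyrimidine enzyme CAD (-0.92 and -0.25) and the phosphate carrier SLC20A1 (-1.24 and -0.23). Of 26 amino acid stress genes, 13 fell and 2 rose in HCC827, 1 fell in ER3, and 13 responses were lost. The serine synthesis enzyme PSAT1 (-1.35 and -0.31) and the tRNA synthetase WARS1 (-0.91 and 0.11) were lost falls, and DDIT3, a stress transcription factor, was a lost rise (0.64 and -0.01). The glucose transporter SLC2A1 (-1.34 and -0.09), lactate dehydrogenase LDHA (-1.11 and 0.11) and ANGPTL4 (-1.63 and -0.41) were lost falls of the glycolysis list, in which 16 of 27 fell in HCC827 and 3 in ER3.

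Some of the largest lost rises were of transcripts near or below background in ER3. CHIA, an acidic chitinase, read 5.94, 6.24 and 6.09 in HCC827 with DMSO, 8.92, 8.93 and 9.05 with erlotinib, 4.74, 4.63 and 4.70 in ER3 with DMSO and 4.78, 4.97 and 4.89 with erlotinib. It was above background on no ER3 array with DMSO and on 2 with erlotinib, and the treated HCC827 arrays stood alone at the top. The change was 2.88 in HCC827 and 0.19 (-0.02 to 0.40) in ER3. MMP10, a matrix metalloproteinase, rose by 1.92 in HCC827 and was above background on no ER3 array, as was CAPN9 (1.64), a calpain protease. KCNJ13, a potassium channel, rose at least 2.77-fold in HCC827, where it was below background with DMSO, and was above background on 1 ER3 array. In all, 33 of the 853 lost rises had no ER3 array above background, so that most lost rises were of measurable genes, 782 of them on all 3 ER3 erlotinib arrays.

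Among measurable genes, NUPR1, a stress-induced chromatin protein, read 7.85, 7.50 and 7.66 in HCC827 with DMSO, 10.16, 10.27 and 10.17 with erlotinib, 7.89, 7.62 and 8.10 in ER3 with DMSO and 8.04, 8.43 and 8.41 with erlotinib. Both lines began at like levels, and the ER3 groups overlapped. NUPR1 rose 5.79-fold in HCC827, and its ER3 change was 0.42 (0.13 to 0.72, adjusted p = 0.14). The cell cycle regulator RGCC (2.10 in HCC827 and 0.11 in ER3) and the secreted phospholipase PLA2G10 (2.04 and 0.18) were lower in untreated ER3 than in untreated HCC827 and were lost. The inhibitors of differentiation ID1 and ID3, which are BMP and SMAD targets, rose by 1.34 and 1.85 in HCC827, with -0.32 (-0.58 to -0.06) and 0.06 (-0.20 to 0.32) in ER3. ID3 started at nearly the same level in both lines, 7.36 ± 0.14 (SD, n = 3) in HCC827 and 7.53 ± 0.14 in ER3. A second ID1 probe had 0.35 in HCC827 and -0.12 in ER3. Of 19 measured lung epithelial markers 7 rose and 3 fell in HCC827, 0 were called in ER3 by limma, and 7 were lost. The lost rises among them included the claudins CLDN3 (0.74 and 0.22) and CLDN7 (0.70 and 0.03) and the transcription factors ELF3 (0.86 and 0.31) and FOXA1 (0.65 and 0.15).

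**Figure D4:**
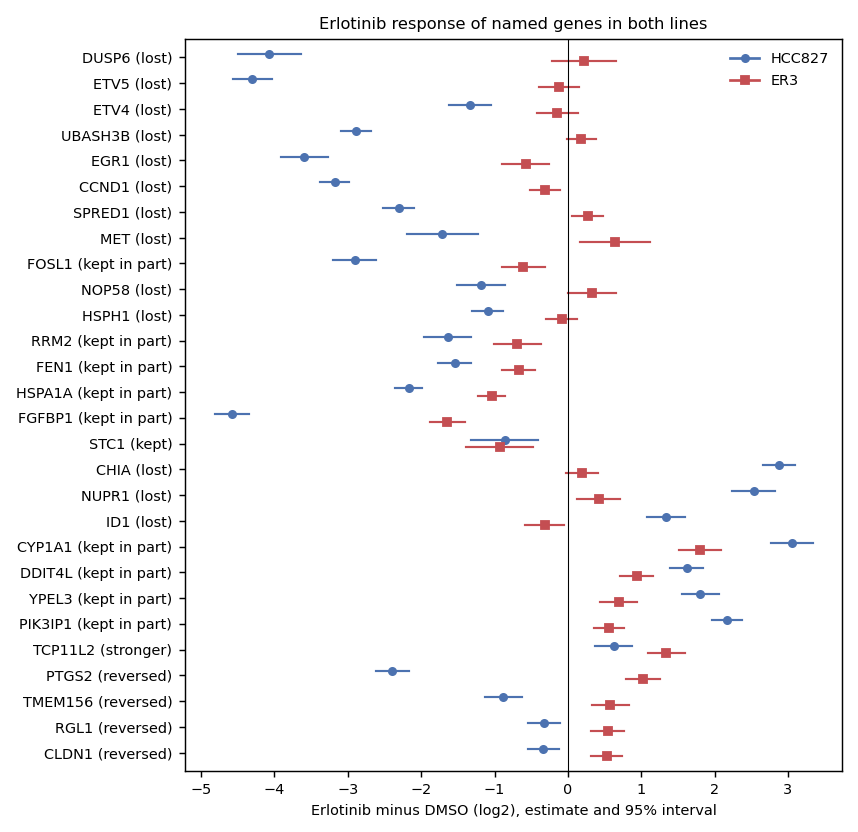
Erlotinib minus DMSO (horizontal axis, log2) of named genes in HCC827 and in ER3, each point with its 95% interval and the class in brackets. Some lost genes, such as DUSP6 and ETV5, have ER3 intervals that hold 0. Those of other lost genes, among them EGR1, CCND1, MET, NUPR1 and ID1, do not. Genes kept or kept in part lie on the same side in both lines, and reversed genes lie on opposite sides.

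The kept or partly kept genes with the largest ER3 changes included CYP1A1, FGFBP1 and HSPA1A. CYP1A1, the standard target of the aryl hydrocarbon receptor, read 4.89, 5.38 and 5.05 in HCC827 with DMSO, 8.23, 8.22 and 8.02 with erlotinib, 4.83, 4.70 and 4.68 in ER3 with DMSO and 6.76, 6.33 and 6.54 with erlotinib. Treated arrays were above untreated ones in both lines, and untreated ER3 was below background. CYP1A1 rose 8.28-fold in HCC827 and at least 3.12-fold in ER3 (adjusted p = 7.23e-06). The fitted values placed CYP1A1 among the genes kept in part, but since the ER3 rise is a lower bound, whether it was smaller than in HCC827 is not settled. CYP1B1, a second cytochrome of this receptor, rose by 1.27 in HCC827 and 0.93 in ER3, and the interaction of -0.34 (-0.69 to 0.00) was not called. CYP1A2 differed: it rose in HCC827 (1.09) and was lost (0.17 in ER3). Of 13 measured targets of that receptor and xenobiotic enzymes, 6 rose in HCC827 and 2 in ER3.

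FGFBP1, which carries fibroblast growth factors, read 9.70, 9.55 and 9.53 in HCC827 with DMSO, 5.04, 5.21 and 4.79 with erlotinib, 7.13, 7.16 and 7.08 in ER3 with DMSO and 5.49, 5.56 and 5.39 with erlotinib. Untreated ER3 was between the HCC827 groups, and treated ER3 came close to treated HCC827. FGFBP1 fell 23.9-fold in HCC827 and 3.12-fold in ER3 (adjusted p = 3.17e-06), with an interaction of 2.94. Treated HCC827 was close to background, so the HCC827 fall may be understated. HSPA1A, an inducible HSP70 chaperone, read 10.23, 10.24 and 10.26 in HCC827 with DMSO, 7.99, 8.10 and 8.14 with erlotinib, 9.51, 9.42 and 9.41 in ER3 with DMSO and 8.35, 8.44 and 8.43 with erlotinib. All 4 groups were separate, and ER3 covered the middle of the HCC827 range. The fall was 4.50-fold in HCC827 and 2.06-fold in ER3 (adjusted p = 2.74e-05). Its near-identical neighbour HSPA1B fell by 1.60 and 0.76, and the probes of the pair may share signal. The HSPA1A promoter at chr6:31815293-31815542 and that of HSPA1B at chr6:31827488-31827737, both plus strand, GRCh38.p14, RefSeq, are shown because the pair fell together in both lines, and capitals mark a heat shock element match, GAANNTTC.
HSPA1A: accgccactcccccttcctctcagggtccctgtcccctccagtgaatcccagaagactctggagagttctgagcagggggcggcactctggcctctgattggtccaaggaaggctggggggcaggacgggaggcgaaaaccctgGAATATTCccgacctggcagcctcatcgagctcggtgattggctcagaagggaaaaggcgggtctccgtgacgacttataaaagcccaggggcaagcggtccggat
HSPA1B: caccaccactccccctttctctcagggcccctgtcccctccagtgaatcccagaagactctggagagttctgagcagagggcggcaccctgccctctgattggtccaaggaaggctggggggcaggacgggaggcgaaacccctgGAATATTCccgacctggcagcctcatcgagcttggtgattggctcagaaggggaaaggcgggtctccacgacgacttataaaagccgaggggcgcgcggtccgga
The match begins at -106 and -105, overlaps no other motif searched, and is found in 5.78% of 35116 promoters on either strand. Each of these promoters also held 2 CCAAT boxes, as 32.0% of promoters held at least 1.

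Across the 19 measured chaperones, 17 fell in HCC827 and 3 in ER3, and 10 were lost and 3 kept in part. The median was -0.86 in HCC827 and -0.18 in ER3. HSPE1, the mitochondrial co-chaperonin, fell in both lines (-1.18 and -0.62), while its partner HSPD1 (-0.90 and 0.10), the HSP110 protein HSPH1 (-1.09 and -0.08) and HSP90AA1 (-0.89 and -0.08) were lost. The further HSPD1 probes disagreed, as 1 was lost and the other had -1.18 and -0.65 with no called interaction. A pair of proteins of the endoplasmic reticulum that respond to unfolded proteins, SDF2L1 (-1.23 and -0.87) and MANF (-1.06 and -0.81), were kept. Other kept or partly kept responses were DDIT4L, an inhibitor of mTOR signalling (1.62 and 0.94), LIPG, a lipase (-2.07 and -0.83), FLRT3, a membrane adhesion protein (0.86 and 0.83), and BCO1, a carotenoid-cleaving enzyme (2.05 and 0.76). MANF, FLRT3 and BCO1 were named after their values were seen. Of the 175 genes called in ER3, 15 were called whichever array was left out, and 12 of these in all 25 alternatives that kept the threshold. The 12 were CYP1A1, CYP1B1, FGFBP1, HSPA1A, HSPA1B, DDIT4L, FLRT3, MANF, BCO1, PTGS2, TCP11L2 and ADGRF1, and the other 3 were LIPG, NTN4 and HBEGF. By class this was 3 of the 72 kept genes and 7 of the 43 kept in part, so membership of most kept genes rests on single arrays.

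DNA replication genes were partly lost. Of 36 measured, 28 fell in HCC827 and 6 in ER3, where 0 to 4 were called with 1 array left out. The interaction was positive for 21, and 16 were lost (against 1866 of 4070 parental responses over all genes), 5 kept in part, 1 kept and 6 undecided. The median was -0.76 in HCC827 and -0.28 in ER3, and the median ER3 change was 30.5% of the parental one against 12.8% over all called genes. The ER3 median was -0.09 with arrays scaled to the median of all probes. RRM2, the ribonucleotide reductase subunit that sets nucleotide supply, read 8.13, 8.09 and 8.05 in HCC827 with DMSO, 6.53, 6.32 and 6.50 with erlotinib, 7.31, 7.30 and 6.89 in ER3 with DMSO and 6.71, 6.09 and 6.64 with erlotinib. The groups of each line were separate, and untreated ER3 was already about midway down. RRM2 fell by 1.64 in HCC827 and 0.69 in ER3 (adjusted p = 0.0417), a call held in 1 of 12 fits with an array left out. The flap endonuclease FEN1 fell by 1.54 and 0.67, a call held in 11 of those 12, and the methylation reader UHRF1 by 1.89 and 0.58. A second UHRF1 probe was undecided, with -0.61 and -0.25. The MCM replication genes MCM2 (-1.04 and -0.28), MCM4 (-1.12 and -0.27) and MCM10 (-2.01 and -0.48) were lost, and MCM6 was kept in part (-1.60 and -0.43). The ER3 call of MCM6 held in 0 of 12 fits with an array left out. MCM10 was called in ER3 with the mean of its probes (-0.50, adjusted p = 0.0287), so the classes do not show that MCM6 kept more of its fall. PCNA, the sliding clamp, had -1.58 and -0.39 and was lost, but its 2 further probes disagreed, with 0.00 and -1.13 in HCC827 and -0.25 and -0.48 in ER3. On the scale from untreated to treated HCC827, ER3 lay at a median of 52% with DMSO and 80.2% with erlotinib over the 28 responding genes, 13 of which were nearer to untreated cells before treatment and 15 nearer to treated ones. This scale shares the HCC827 arrays with the response itself and is a description.

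FOXO target genes, which AKT signalling holds down, rose for 16 of 24 in HCC827 and fell for 2, and 5 rose and 1 fell in ER3. The interaction was negative for 12 and positive for 3. Of the HCC827 responses, 9 were lost, 4 kept in part and 1 kept, and the medians were 0.58 and 0.27. The share lost was near that over all genes, 1866 of 4070. YPEL3, a growth-suppressing gene, read 5.80, 6.01 and 6.01 in HCC827 with DMSO, 7.68, 7.79 and 7.75 with erlotinib, 7.24, 7.20 and 7.16 in ER3 with DMSO and 7.61, 7.97 and 8.10 with erlotinib. Untreated ER3 stood well above untreated HCC827, and treatment brought both lines to like levels. The rise was 1.80 in HCC827 and 0.69 in ER3 (adjusted p = 0.0144). KLHL24 (1.60 and 0.66), the PI3K inhibitor PIK3IP1 (2.16 and 0.57) and the thioredoxin inhibitor TXNIP (1.39 and 0.53) were kept in part, and the atypical cyclin CCNG2 was kept (0.87 and 0.59), though another of its probes was classed as lost. BCL6 (1.67 and 0.31), the CDK inhibitor CDKN1B (1.04 and 0.16) and the death ligand TNFSF10 (1.29 and 0.44) were lost. A second CDKN1B probe was undecided (0.81 and 0.40, interaction adjusted p = 0.0663), and the CDKN1B interaction was not called with arrays scaled to the median of all probes. Of the BCL2 family, the pro-apoptotic BMF rose in HCC827 and was lost (1.19 and 0.38), BIK fell in both lines (-0.66 and -0.49), and BCL2L11, which encodes BIM, had no call (0.09 and -0.11). A further BMF probe was lost too (1.29 and 0.42), but others had no call (0.15 and 0.17, and 0.16 and 0.26). The BMF interaction was not called with arrays scaled to the median of all probes (-0.41). Among 12 measured members 2 rose and 3 fell in HCC827, a share near the 35.6% over all genes, and 1 fell in ER3.

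Cholesterol synthesis and hypoxia-type genes held a further few kept responses. Of 18 sterol genes 11 fell and 1 rose in HCC827, 2 fell in ER3, and the interaction was called for 6. SQLE, squalene epoxidase, fell by 0.81 and 0.49, a call lost in every fit that left out an array, and the isomerase EBP by 0.51 and 0.47. A second SQLE probe was kept too, with -0.80 and -0.60 (adjusted p = 0.0182 in ER3). HMGCS1 (-1.05 and -0.49), the HMG-CoA synthase, was classed as lost, with an interaction of 0.56 that missed the threshold in most fits that left out an array. Its ER3 fall was called in several alternatives, among them no background correction (adjusted p = 0.0185) and trended and robust variances (adjusted p = 0.0152). IDI1 (-1.02 and -0.12) and CYP51A1 (-0.82 and 0.19) were lost. The glycolytic regulator PFKFB4 (-0.99 and -0.87), the enolase ENO2 (-0.97 and -0.59) and the peptide hormone ADM (-0.46 and -0.50) were kept.

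**Figure D5:**
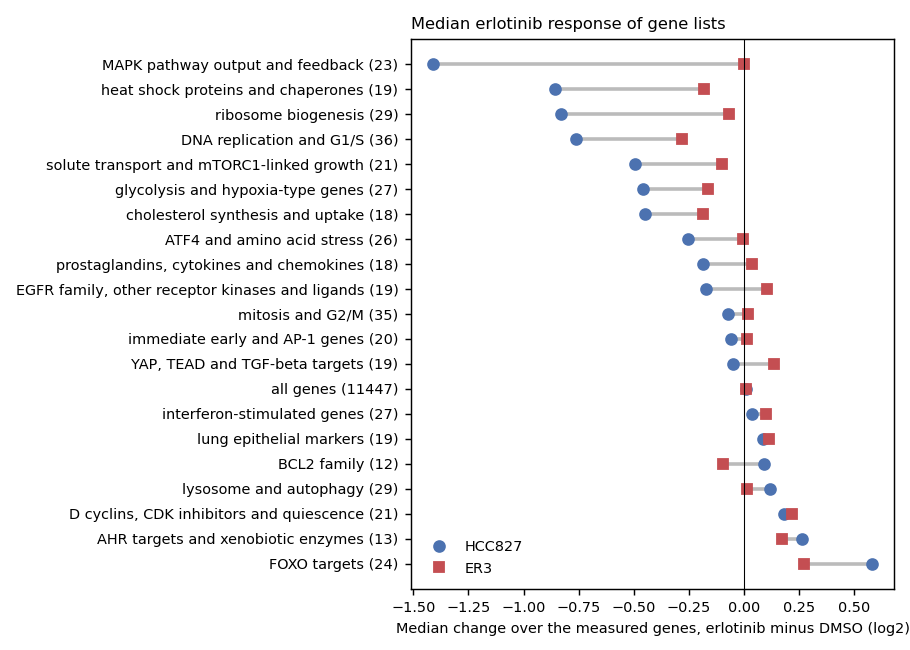
Median erlotinib minus DMSO over the measured genes of each list (horizontal axis, log2), as circles for HCC827 and squares for ER3, with the number of genes in brackets and all 11447 genes for reference. The mesenchymal and leukocyte marker lists are not shown. The ERK cascade list moves from -1.41 in HCC827 to -0.00 in ER3, and DNA replication from -0.76 to -0.28.

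PTGS2 was the reversed gene with the largest values. This gene encodes cyclooxygenase 2, which makes prostaglandin precursors. It read 9.06, 9.05 and 9.00 in HCC827 with DMSO, 6.70, 6.54 and 6.70 with erlotinib, 9.47, 9.68 and 9.66 in ER3 with DMSO and 10.70, 10.42 and 10.75 with erlotinib. Treated HCC827 was the lowest group and treated ER3 the highest, with no overlap anywhere. PTGS2 fell 5.25-fold in HCC827 and rose 2.03-fold in ER3 (adjusted p = 0.000317), and the interaction was 3.41 (SE 0.15, adjusted p = 2.72e-09). Its second probe had -1.24 and 1.03. The PTGS2 promoter at chr1:186680424-186680673, minus strand, GRCh38.p14, RefSeq, is shown because a cyclic AMP response element is among its textbook elements, and capitals mark the half-site TGACG, read on the other strand, at -58.
PTGS2: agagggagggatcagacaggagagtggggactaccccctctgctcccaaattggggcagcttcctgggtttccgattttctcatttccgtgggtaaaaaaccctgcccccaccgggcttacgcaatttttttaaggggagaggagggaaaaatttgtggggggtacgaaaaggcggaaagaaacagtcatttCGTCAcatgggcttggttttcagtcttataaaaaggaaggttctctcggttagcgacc
That half-site was in 21.2% of 35116 promoters on either strand, and here it overlapped no other motif searched, while GAANNTTC began at -23 and CCAAT at -201. Other genes of the list of prostaglandins, cytokines and chemokines did not reverse: the prostaglandin receptor PTGER4 (-1.29 and 0.04), the synthase PTGES (-0.51 and 0.17) and the chemokines CXCL8 (-1.63 and -0.09) and CXCL5 (-1.16 and 0.10) were lost. In that list 8 of 18 fell and 2 rose in HCC827, and PTGS2 alone was called in ER3.

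The other 6 reversed genes changed by less than 1 on the log2 scale in either line. TMEM156, a membrane protein, read 9.47, 9.81 and 9.67 in HCC827 with DMSO, 8.71, 8.80 and 8.80 with erlotinib, 9.77, 9.50 and 9.84 in ER3 with DMSO and 10.31, 10.40 and 10.12 with erlotinib. Its untreated groups overlapped, and erlotinib separated them in opposite directions, by -0.88 and 0.58, with a second probe at -1.18 and 0.67. CLDN1, a tight junction claudin, had -0.34 and 0.53, and RGL1, an activator of Ral GTPases, -0.32 and 0.54. The transcription factor CREB5 had -0.31 and 0.52, but its HCC827 groups overlapped and its second probe, with 0.06 and 0.20, had no call. RAP1GAP, which switches off RAP1, had -0.45 and 0.39. DSCAM, an adhesion molecule, went the other way, with 0.25 and -0.41, but its HCC827 change was not called with no background correction (0.14, adjusted p = 0.151). Of the 7, PTGS2 alone was called in ER3 in all 12 fits that left out an array, and the number of reversed genes was 1 to 28 in those fits. The ER3 call held in 9 of the 12 for CLDN1, 8 for RGL1, 7 for TMEM156, 5 for CREB5, 2 for DSCAM and 1 for RAP1GAP.

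A larger response in ER3 was called for TCP11L2 alone, which read 4.75, 4.89 and 4.81 in HCC827 with DMSO, 5.62, 5.31 and 5.38 with erlotinib, 4.83, 5.14 and 4.73 in ER3 with DMSO and 6.24, 6.13 and 6.35 with erlotinib. Untreated arrays of both lines were close to background, and the treated ER3 arrays were the highest. It rose by 0.62 in HCC827 and 1.34 in ER3, with an interaction of 0.72 (adjusted p = 0.0103), which was not called under scaling by the array median (0.35) or for its second probe (adjusted p = 0.264). Of the 30 genes with a response in ER3 alone by the calls, 19 rose and 11 fell. ADGRF1, an adhesion G protein-coupled receptor, read 7.83, 7.89 and 7.65 in ER3 with DMSO and 8.71, 8.54 and 8.81 with erlotinib, against 8.00 to 8.28 over the HCC827 arrays. It rose by 0.90 in ER3 with 0.01 in HCC827, but the interactions of its 2 further probes were not called. One of these was classed as kept, with 0.45 in HCC827 and 0.47 in ER3. The mean of the ADGRF1 probes was called in HCC827 as well (0.22, adjusted p = 0.0345). HBEGF, an EGFR ligand, read 7.29, 7.20 and 7.09 in ER3 with DMSO and 7.88, 7.85 and 7.95 with erlotinib, and 6.39 to 6.79 in HCC827. It rose by 0.70 in ER3 (adjusted p = 0.00423) with -0.19 in HCC827, and the interaction was 0.88 (adjusted p = 0.000759). SSH1, a cofilin phosphatase (0.76 in ER3 and -0.36 in HCC827), NTN4, a netrin (0.74 and 0.17), and RASEF (0.68 and -0.15) followed. A second NTN4 probe had no call (0.45 in ER3 and 0.01 in HCC827), and the NTN4 interaction missed the threshold with the mean of its probes (adjusted p = 0.0702). LRRC7 rose by 0.72 in ER3 but was below background on all HCC827 arrays, so that its response there was not measured. Called falls in ER3 alone included DDIT4, an mTORC1 inhibitor (-0.55 in ER3 and -0.09 in HCC827), and KLF10 (-0.49 and 0.26). The DDIT4 interaction missed the threshold in 11 of 24 alternative analyses. The ER3 call of KLF10 held in 1 of 12 fits with an array left out, and a further probe had 0.20 in ER3. With 1 array left out, the number of such genes was 4 to 86.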

How the data were processed

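The authors deposited a table of bead signal intensity with a detection p-value for each probe and array, not normalised, and a second table of processed intensity on a linear scale, whose columns share 1 distribution. Per the submitters' processing notes BeadStudio was used, and no source used here gives how the second table was made. From the first table, background was corrected and arrays were quantile normalised over all 18 arrays with neqc (offset 16), giving log2 values. A probe entered the fit when 3 or more of the 12 arrays had a detection p under 0.05. limma 3.58.1 in R 4.3.3 fitted 4 group means to the 12 arrays, with 8 residual degrees of freedom, and p-values were adjusted by Benjamini-Hochberg over all 18866 kept probes. The platform annotation gave 28093 probes 1 symbol, 13 several and 20697 none, and 28054 identifiers matched RefSeq. A gene was read from its probe with the highest mean, for 2919 genes out of several. The fold of a probe below background on all arrays of 1 group is a bound, taken against the lowest probe above background on each array.

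The members, lists and naming rule were chosen with earlier results of these data known, so lists are given as counts and medians with no test. The rule named the largest interactions and ER3 changes in each class and list, and further list members named by role were chosen after their values were seen. Replicate numbers did not pair the samples: 2 of 18 same-number correlations were over 0.1 (range -0.41 to 0.23). Precision is limited by the number of arrays. The procedure was tested on simulated data. Alternatives covered background, scaling, filters, the fit, probes and each array left out.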

Additional observations from a re-analysis of the deposited data

Results flagged for a closer look

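The difference between the erlotinib responses of the lines was itself tested and was called for 2127 genes. Among named genes whose responses went in opposite directions, the interaction was 3.41 for PTGS2, 1.46 for TMEM156, 0.87 for RGL1, 0.87 for CLDN1, 0.84 for RAP1GAP, 0.83 for CREB5 and -0.66 for DSCAM. For TCP11L2, which rose in both lines and more in ER3, it was 0.72. Among named genes called in ER3 and not in HCC827, it was 1.12 for SSH1, 0.88 for ADGRF1, 0.88 for HBEGF, 0.84 for RASEF, 0.72 for LRRC7 and 0.57 for NTN4, where LRRC7 was below background on all HCC827 arrays. A further ADGRF1 probe was called in both lines.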

How the results depend on the processing

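Among the named genes, no called value turned its sign under an alternative run. Leaving out each array in turn gave 3245 to 4330 called genes in HCC827, 19 to 305 in ER3 and 1495 to 2749 interactions, with 1322 to 2223 lost, 8 to 45 kept in part, 4 to 92 kept, 1 to 28 reversed, 1 stronger, 4 to 86 gained and 1830 to 2620 undecided. Called ER3 genes, then those kept in part, kept and gained, numbered 337, 80, 129 and 60 with no background correction, 336, 80, 130 and 60 with the authors' processed values, 301, 73, 119 and 50 with a strict filter, 339, 82, 124 and 61 with all 18 arrays, 332, 81, 124 and 53 with trended and robust variances, and 96, 26, 38 and 17 with median scaling. Reversed genes numbered 13, 14, 12 and 4 in the last 4 of these, and none was stronger (0) with median scaling. The replicate block left 46 ER3 calls, 15 kept in part, 15 kept, 1 reversed and 12 gained. The mean of a gene's probes gave 275 ER3 calls, 68 kept in part, 12 reversed, 2 stronger and 46 gained, adjustment over 1 probe per gene gave 47 gained, and the 6 ER3 arrays alone gave 12 calls. A 2-fold minimum left 375 genes in HCC827, 5 in ER3 and 296 interactions, with 222 lost, 3 kept in part, 0 kept, 1 reversed, 0 stronger, 0 gained and 149 undecided. At an adjusted p below 0.01 there were 15 ER3 calls and 905 interactions, with 854 lost, 7 kept in part, 4 kept, 1 reversed, 0 stronger and 2 gained. Median scaling made 46.6% of called interactions positive, against 55%, and scaling to the median of all probes, chosen after seeing the data, made 93.1% positive and moved the median interaction from -0.01 to 0.26, with 16 kept in part, 14 reversed, 60 gained and 1236 undecided. The cause of these shifts was not tested. A block for the chip was not run, as the files used give no chip. Further probes of genes with a called interaction had its sign in 682 of 813 cases and were called against it in 6.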

Other observations

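Several lists had a share called in HCC827 near the 35.6% over all genes, and their counts are given as descriptions. Of 35 measured mitosis genes, 11 fell and 4 rose in HCC827 and 0 were called in ER3 by limma, with 8 lost. The checkpoint genes MAD2L1 (-1.01 in HCC827 and -0.23 in ER3) and BUB1B (-0.81 and 0.12) were lost falls, and the phosphatase CDC25B (0.84 and 0.11) and the kinesin KIF20A (0.56 and -0.03) lost rises. Of 29 lysosome and autophagy genes, 8 rose and 3 fell in HCC827 and 1 rose in ER3, with 6 lost. GABARAPL1, an autophagosome protein, was lost (1.49 and 0.26), and ULK1, the kinase that starts autophagy, was kept in part (0.92 and 0.48). A second ULK1 probe was kept in part too, but the ULK1 interaction missed the threshold in several fits that left out an array (adjusted p = 0.0505 to 0.0842). Of 19 YAP and TGF-beta target genes, 3 rose and 4 fell in HCC827 and 5 were lost. ID1 and ID3 were lost rises, and the secreted factor CCN2 (-1.44 and 0.32), tissue factor F3 (-1.21 and 0.08) and the ectonucleotidase NT5E (-1.10 and 0.29) were lost falls.

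Surfactant protein SFTPA1 fell by 1.94 in HCC827 and was above background on no ER3 array. FOXA2, a lung epithelial transcription factor, was a lost fall (-1.48 and -0.29). Of 27 interferon-stimulated genes 5 rose and 6 fell in HCC827, a share near the 35.6% over all genes. In ER3 1 rose, and 4 parental responses were lost, among them RSAD2 (-0.87 and 0.05). Of 15 measured mesenchymal markers, 3 rose and 1 fell in HCC827 and 0 were called in ER3, and 1 was lost. Of 6 leukocyte markers 2 fell in HCC827 and 0 were called in ER3.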
